A study of Mus musculus with 4 samples.

Results

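Splenic adherent colony cells (SACCs) kept in a serum-free medium for mouse embryonic stem cells (ES medium) were set against SACCs kept in plain medium, gene by gene, on a log2 scale. SACCs are adherent cells that grow into dense, compact colonies when pieces of mouse spleen are kept in culture. The comparison uses 2 of the 4 Affymetrix arrays of the study, 1 array for each medium, and the other two arrays, of monolayer cells from the same kind of culture (controls), were measured beside them. All 4 came from spleens of C57BL/6J mice, cut into 6 pieces each and first kept in RPMI medium with 5% fetal bovine serum, which is taken here as the plain medium of the labels.

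The ES medium replaced the plain medium once colonies began to form, at about 7 to 14 days. Its composition beyond the absence of serum is not given in the labels. Both controls were in plain medium, and the labels name control replicate 1 as the counterpart of the SACCs in ES medium and control replicate 2 as that of the SACCs in plain medium. Nothing in the labels says which animals or cultures the arrays came from, or whether any were pooled. With 1 SACC array per medium no test was run, so a difference here is that of 2 arrays and has no replicate check. As a yardstick, each difference between the SACC arrays (ES minus plain, the SACC difference) is given with the difference between the controls (replicate 1 minus replicate 2, the control difference). The RNA came from whole cultures, in which fewer cells of a type and less RNA per cell cannot be told apart.

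Serum brings lipoproteins, growth factors and adhesion proteins to cultured cells, and a serum-free medium supplies a defined set in their place. When cholesterol falls in the endoplasmic reticulum, the protein Scap carries the SREBP transcription factors to the Golgi, where proteases cut them free to switch on cholesterol synthesis. Addition of serum or growth factors calls up immediate early genes such as Fos and Egr1, and low oxygen stabilises HIF, which switches on Vegfa and genes of glycolysis. Splenic stroma is built from mesenchymal cells that share contractile genes with smooth muscle and supply factors for leukocytes.

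Promoter sequences are shown for 3 genes of sets that were higher as a group in ES medium, a pair of mitotic genes and a gene of cholesterol synthesis, because elements for these programmes are known at such promoters. The windows are the 250 bases before the RefSeq gene start on GRCm38.p6, read along the gene. They lie at chr9:70421555-70421804 (minus strand) for Ccnb2, a cyclin of mitosis, at chr4:118437344-118437593 (minus strand) for Cdc20, an activator of the anaphase-promoting complex, and at chr13:119690101-119690350 (plus strand) for Hmgcs1, the synthase of hydroxymethylglutaryl-CoA. Capitals mark CCAAT, which reads as its reverse complement where it lies on the opposite strand. They also mark TTTGAA, a form of the cell cycle genes homology region. In Hmgcs1 they further mark TCACCCCAC, the core of a sterol regulatory element.
Ccnb2: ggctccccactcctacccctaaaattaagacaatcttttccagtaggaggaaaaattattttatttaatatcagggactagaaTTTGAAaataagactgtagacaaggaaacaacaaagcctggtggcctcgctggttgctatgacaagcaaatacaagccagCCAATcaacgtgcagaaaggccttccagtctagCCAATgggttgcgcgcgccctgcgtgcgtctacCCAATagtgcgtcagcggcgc
Cdc20: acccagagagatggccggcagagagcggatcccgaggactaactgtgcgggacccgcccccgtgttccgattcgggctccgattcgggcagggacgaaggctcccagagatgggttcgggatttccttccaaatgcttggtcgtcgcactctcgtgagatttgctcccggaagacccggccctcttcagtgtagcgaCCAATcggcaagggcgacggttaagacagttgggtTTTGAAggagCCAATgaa
Hmgcs1: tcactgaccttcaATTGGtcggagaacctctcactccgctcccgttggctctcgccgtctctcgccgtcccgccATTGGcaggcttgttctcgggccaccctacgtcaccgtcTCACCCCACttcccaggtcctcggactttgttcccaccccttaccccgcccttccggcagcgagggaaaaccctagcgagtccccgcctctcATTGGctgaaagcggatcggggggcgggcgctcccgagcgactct

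The first base of CCAAT lay at -87, -54 and -21 from the gene start in Ccnb2 and at -53 and -8 in Cdc20. TTTGAA began at -167 in Ccnb2, farther from the gene start than all its CCAAT copies, and at -18 in Cdc20. Whether these TTTGAA matches act as the homology region was not tested. In Hmgcs1 the 3 CCAAT copies lay on the opposite strand, and the sterol core began at -137. The motif search covered both strands and took CCAAT, either of the forms TTTGAA and TTCGAA, and the sterol core TCACCCCAC in the RefSeq promoters of 14472 measured genes. CCAAT was present in 19 of 22 mitosis promoters (86.4%), 12 of 14 cholesterol synthesis promoters (85.7%) and 12 of 18 replication promoters (66.7%), beside 35.7% of all promoters. Either form of the homology region was present in 9 of 22 mitosis promoters (40.9%), 5 of 18 replication promoters (27.8%) and 2 of 14 cholesterol synthesis promoters (14.3%), beside 13.4% of all. The sterol core was in 1 of 14 cholesterol synthesis promoters (7.14%), that of Hmgcs1, and in 0.504% of all. These matches describe letters in the windows and say nothing of which factor bound there.

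Markers of stroma and of macrophages were both well above the median on every array. Col1a1, a chain of type I collagen, was at 12.65 in SACCs in ES medium and 12.09 in SACCs in plain medium, against 10.44 and 9.75 in the controls. Csf1r, the macrophage growth factor receptor, was at 11.74 in SACCs in ES medium and 11.12 in SACCs in plain medium, against 13.55 and 12.86 in the controls. Only the probe set used here, 1 of 3 for Csf1r, had that order of the SACC arrays. Ptprc, the leukocyte antigen CD45, was at 9.14 and 8.67 on the same SACC arrays, against 11.28 and 10.66 in the controls. The ES cell factors Pou5f1 (2.31 in ES medium and 2.58 in plain medium), Sox2 (1.73 and 1.89) and Nanog (2.32 and 1.85) lay below the array medians on both SACC arrays. Array medians were about 4.45 after quantile normalization.

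Several transcripts set SACCs in ES medium and control replicate 1 apart from the other arrays. Xist, the RNA that coats the inactive X chromosome of female cells, was at 10.50 in SACCs in ES medium and 4.21 in SACCs in plain medium, against 11.45 in control replicate 1 and 4.60 in control replicate 2. The Y-linked helicase gene Ddx3y had the opposite order, 2.02 in SACCs in ES medium and 9.40 in SACCs in plain medium, against 2.15 and 9.11 in the controls. Eif2s3y (1.84 in ES medium, 7.37 in plain medium) and Kdm5d (1.97 in ES medium, 6.12 in plain medium), both on the Y chromosome, followed Ddx3y. Medium, sex-linked transcripts and deposited table all changed together between the SACC arrays, and their parts in any SACC difference cannot be told apart. The labels give no sex.

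Immunoglobulin transcripts went with the same split. Jchain, which joins secreted antibody subunits, was at 3.58 in SACCs in ES medium and 8.40 in SACCs in plain medium, against 3.80 in control replicate 1 and 7.76 in control replicate 2. Ighm, the heavy chain of IgM, was at 6.52 and 11.15 on the SACC arrays, against 8.98 and 10.47 in the controls. The light chain entries Igk (-6.05, controls -5.87) and Iglv1 (-5.85, controls -3.72) were also lower in both differences. The B cell markers Cd79a and Ms4a1 were at 4.05 or below on both SACC arrays. Others were higher, Ebf1 at 6.31 in ES medium and 6.68 in plain medium, Cd79b at 4.53 and 4.47, and Pax5 at 4.32 and 4.62. Of 10 measured B cell genes, Ighm among them, 4 lay above the array median on a SACC array and 5 below the median on all 4 arrays. The part of these transcripts in other differences was not tested.

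A gene was counted as apart when its level differed at least 2-fold, a difference of 1 on the log2 scale. Of 19747 genes, 637 (3.23%) were at least 2-fold higher in ES medium and 497 (2.52%) at least 2-fold lower. Between the controls, which shared a medium, 774 genes (3.92%) were higher in replicate 1 and 789 (4%) lower, more than between the SACC arrays in both directions. At 2-fold, the order of the higher counts turned in 2 settings. With each array centred on its median 629 genes were higher in ES medium and 488 in control replicate 1, and with the mean of the probe sets of a gene 408 and 405. At 4-fold, 75 genes (0.38%) were higher and 56 (0.284%) lower in ES medium, beside 58 (0.294%) and 90 (0.456%) between the controls. Here too the higher count was the larger between the SACC arrays. Without the genes on chromosomes X and Y, a setting added after the data were seen, 602 genes were 2-fold higher and 483 lower in ES medium, beside 748 and 770 between the controls. Among 12715 genes with a SACC value above the array median 583 (4.59%) were 2-fold higher and 445 (3.5%) lower, and among the other genes 54 (0.768%) and 52 (0.739%). The share of higher genes among the SACC calls was 56.2%. It was 72.9% with the values as deposited, which shift the median of all genes to 0.17, but 42.8% with the mean and 41.3% with the median of the probe sets of a gene, and 45.5% over all probe sets, so the direction of the split depends on how probe sets are used. Of all genes 51.9% had a SACC difference above 0 and 48.1% one below 0, and counts of list members are read against these shares and those past 2-fold. Of 71 named genes at least 2-fold apart with several probe sets, 26 had a probe set of the opposite sign. Among them were Fxyd2, Chl1, Kcnj15, Hmmr, Rrm2, Cx3cl1, C1qb and Tbx3, and not every such gene is marked below.

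Across genes, which are not independent, the SACC difference and the control difference had a Pearson r of 0.518 over 19747 genes (Spearman's rho 0.525), and an r of 0.507 without the 647 genes on chromosomes X and Y. No array enters both differences, but each takes its first array from one deposited table and its second from the other. The SACC differences had an SD of 0.537 over genes and the control differences one of 0.591. Of the 637 higher genes, 168 (26.4%, and 21.7% of the control genes) were also 2-fold higher in control replicate 1, and 232 (36.4%) had a control difference under 0.5 in size. Of the 497 lower genes, 229 (46.1%, and 29.0% of the control genes) were also 2-fold lower in control replicate 1, and 130 (26.2%) had controls within 0.5. Over all genes 69.2% had controls within 0.5.

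**Figure D1:**
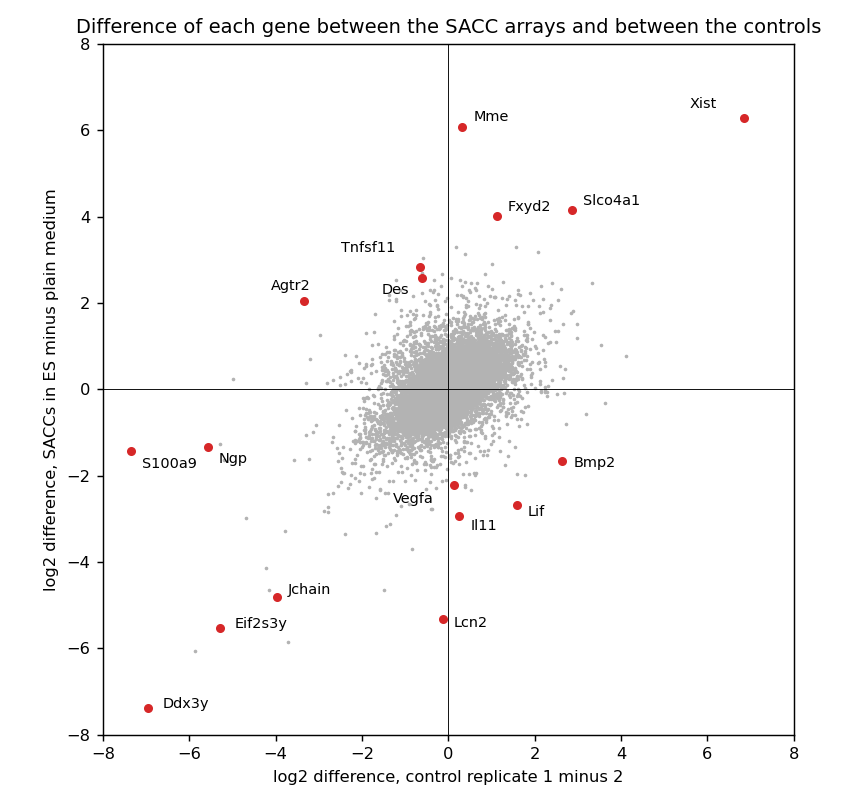
Each grey point is a gene, with the control difference (replicate 1 minus replicate 2, log2) on the x axis and the SACC difference (ES minus plain medium, log2) on the y axis, and red points are named. Mme and Lcn2 lie near the vertical line at 0, with control differences of 0.33 and -0.12, while Xist and Ddx3y lie along the diagonal and S100a9 far to the left at -7.34.

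In both differences 31 genes were at least 4-fold apart the same way, and for 22 of them the 2 differences lay within 0.5 of each other. The basigin gene Bsg, for a membrane glycoprotein that escorts lactate transporters, had 9.13 in SACCs in ES medium and 11.97 in SACCs in plain medium, against 8.18 and 10.97 in the controls. Trem2, a lipid-sensing receptor of macrophages, had a SACC difference of -2.73 and a control difference of -2.78. For Smn1, which assembles splicing particles, these were -2.40 and -2.67. Higher on both counts were Igfbp5, which binds insulin-like growth factors (2.10 and 2.20), the Wnt inhibitor Dkk2 (2.45 and 2.40) and the serine protease Prss23 (2.39 and 2.15). For these 6 genes the monolayer cells, both in plain medium, differed about as much as the SACCs.

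Probe sets of the type ending in _a_at were frequent among those at least 2-fold lower in both differences, a split looked at after the values were seen. Of 4426 _a_at probe sets 433 (9.78%) were lower in both, beside 728 of 36082 (2.02%) of the plain _at type. Among probe sets lower in ES medium with controls within 0.5, the shares were 1.11% and 0.557%. The part of the probe set type in these differences was not tested.

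The gene with the second largest SACC difference upward, after Xist, was Mme, which encodes neprilysin (CD10), a membrane peptidase that cleaves small signalling peptides. Its level was 9.19 in SACCs in ES medium and 3.11 in SACCs in plain medium, against 2.62 and 2.30 in the controls. Only the SACCs in ES medium lay above the array median, and the SACC difference of 6.09 amounts to 68.0-fold, with a control difference of 0.33. The fold is measured against a value below the median and is uncertain for that reason.

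The highest and lowest genes described next are those with a SACC value above the array median, leaving out predicted genes, clone names, small RNAs, olfactory and vomeronasal receptors and segments of immunoglobulins and T cell receptors. Among the 20 highest of these, 8 had controls within 0.5 and 6 were 2-fold higher in control replicate 1 as well, and 9 had a plain medium value at or below the median. Sema3g, a secreted guidance factor, was at 9.21 in SACCs in ES medium and 6.09 in SACCs in plain medium, against 4.17 and 3.78 in the controls. The adhesion molecule gene Chl1 was at 6.35 and 3.32 on the SACC arrays, against 2.66 and 3.25 in the controls. Kcnj15, a potassium channel, was at 6.86 and 3.56 on the SACC arrays, against 3.03 and 2.84 in the controls. In these 3 genes the SACCs in ES medium stood above all other arrays, and the controls lay at or below the SACCs in plain medium.

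The acute phase protein haptoglobin, Hp, was at 11.81 in SACCs in ES medium and 8.91 in SACCs in plain medium, against 8.07 and 7.07 in the controls. Fxyd2, a regulatory subunit of the sodium pump, had 9.12 and 5.11 in SACCs, against 5.58 and 4.45 in the controls. For both the order of the controls was the same as that of the SACC arrays, although their SACC differences of 2.90 and 4.01 were larger. The organic anion transporter gene Slco4a1 (4.14, controls 2.86) and Hpgd, which inactivates prostaglandins (3.18, controls 2.07), followed the same order. Wif1, a secreted Wnt inhibitor, was at 4.77 in ES medium and 2.09 in plain medium, against 1.99 and 2.12 in the controls. Slc24a3, a calcium exchanger, and P2ry14, a receptor for UDP-sugars, had SACC differences of 2.59 and 2.54 with control differences of 0.06 and 0.28.

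The lowest gene with close controls was Lcn2, encoding lipocalin 2, an iron-scavenging protein of neutrophils and inflamed tissue. Lcn2 was at 7.19 in SACCs in ES medium and 12.52 in SACCs in plain medium, against 8.46 and 8.58 in the controls. The SACCs in plain medium stood apart from the other 3 arrays, and the difference of -5.33 is 40.2-fold. Il11, a cytokine of the interleukin 6 family, was at 7.53 in ES medium and 10.46 in plain medium, against 5.24 and 4.98 in the controls. It was higher on both SACC arrays than in either control, and highest in plain medium.

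With the same genes left out, Ighm, Igk and Iglv1 among them, 14 of the 20 lowest were also 2-fold lower in control replicate 1, and 4 had controls within 0.5. Besides Lcn2 and Il11 these 4 were Fcrls, a receptor-like gene of macrophages (7.15 in ES medium and 9.91 in plain medium, against 10.82 and 11.21 in the controls), and the mast cell chymase Mcpt4 (2.69 and 5.46, against 3.19 and 3.56). Lif, the cytokine that keeps mouse ES cells undifferentiated, went the other way between the controls. It was at 6.99 in SACCs in ES medium and 9.66 in SACCs in plain medium, against 7.96 in control replicate 1 and 6.37 in control replicate 2. Its SACC difference was -2.67 and its control difference 1.58. Csf3, the granulocyte growth factor G-CSF, was at 4.91 in ES medium and 7.20 in plain medium, against 5.07 and 5.34 in the controls.

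**Figure D2:**
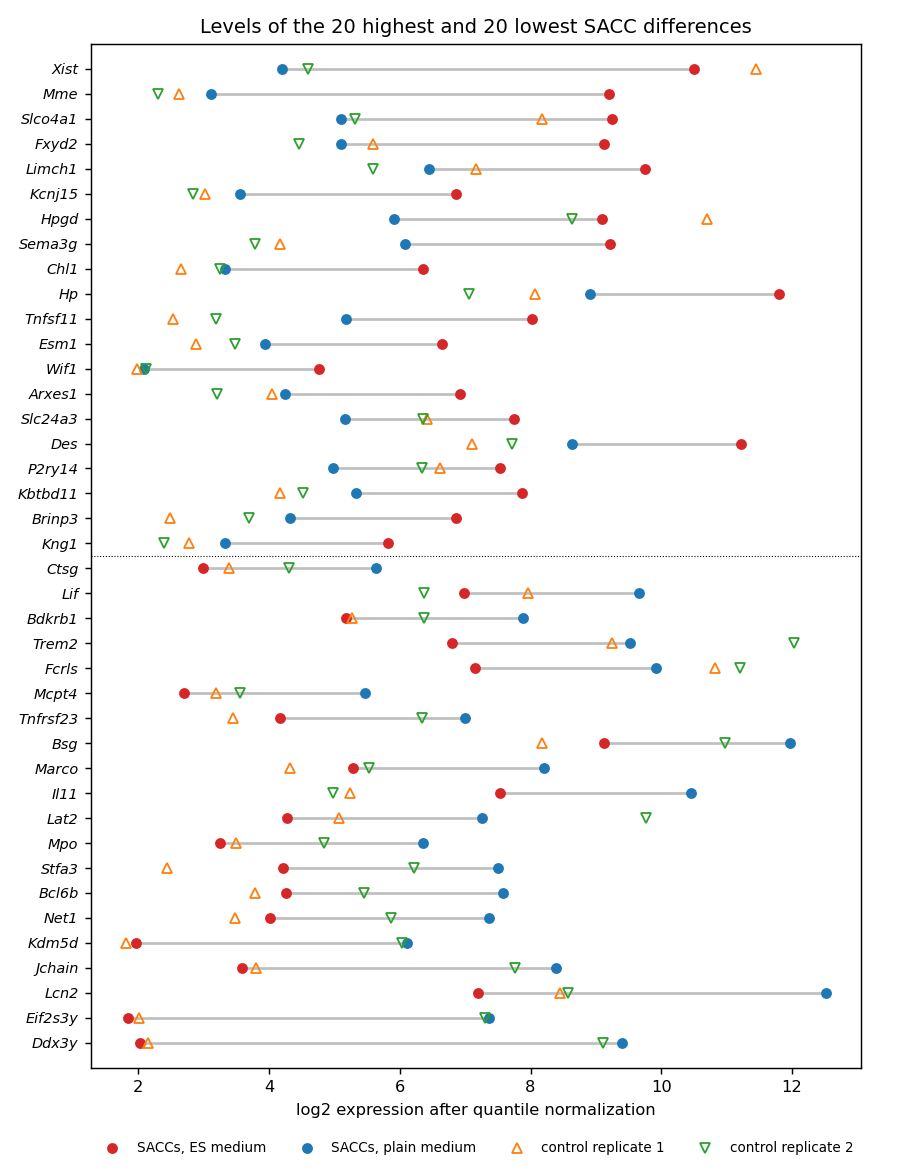
Log2 levels on the 4 arrays of the 20 genes with the highest SACC differences (above the dotted line) and the 20 with the lowest (below it), leaving out predicted genes and immunoglobulin segments among others, with a grey bar between SACCs in ES medium (red) and SACCs in plain medium (blue), and triangles for the controls. For Mme, Sema3g and Chl1 the controls sit near or below the plain medium value, whereas for Xist and Ddx3y they are as far apart as the SACC arrays or nearly so.

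Cell division genes were higher in SACCs in ES medium. All 26 mitosis genes had a SACC difference above 0, with a median of 0.58, beside 0.02 over all genes and 51.9% of all genes above 0. At least 2-fold higher were 4 of 26, beside 3.23% of all genes, and none were lower. Ccnb1, the cyclin that starts mitosis, was at 8.47 in SACCs in ES medium and 6.97 in SACCs in plain medium, against 7.04 in control replicate 1 and 7.92 in control replicate 2. Mki67, the common marker of dividing cells, was at 8.78 and 8.04 on the SACC arrays, against 8.12 and 9.23 in the controls. In both genes the order of the controls was the reverse of that of the SACC arrays. The other 3 genes past 2-fold were Hmmr, which binds the spindle (1.40), and the checkpoint kinases Bub1 (1.29) and Ttk (1.17).

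Between the controls 21 of the 26 mitosis genes were at least 2-fold lower in replicate 1 and all 26 were below 0, with a median of -1.43. The promoters printed above belong to genes with SACC differences of 0.50 for Ccnb2 and 0.85 for Cdc20, and control differences of -1.96 and -0.58. Of the 4 arrays, SACCs in ES medium were the highest for 8 of the 26 genes, among them Ccnb1, Hmmr, Bub1 and Ttk, and control replicate 2 for the other 18, among them Mki67 and Ccnb2. The median level over the list was 7.19 in SACCs in ES medium and 6.34 in SACCs in plain medium, against 5.93 and 7.20 in the controls.

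DNA replication genes showed the same order, with 21 of 24 above 0, a median of 0.73, 8 at least 2-fold higher and none lower. The median was 0.35 with the mean and 0.31 with the median of the probe sets of a gene. Rrm2, the regulated subunit of ribonucleotide reductase, was at 9.20 in SACCs in ES medium and 7.38 in SACCs in plain medium, against 8.26 and 9.15 in the controls. The S phase cyclin Ccne2 was at 6.07 and 4.43 on the SACC arrays, against 4.93 and 5.70 in the controls. Mcm4 and Mcm5, subunits of the replicative helicase, had SACC differences of 1.28 and 1.29 with control differences of 0.07 and -0.89. Rrm1, the large reductase subunit, had 1.11 for its brightest probe set and -0.95 for the mean of its probe sets, so its direction depends on the probe set. Pcna, the sliding clamp of DNA polymerase, did not follow, with a SACC difference of -0.21 and a control difference of -1.94. The list median between the controls was -0.89, with 10 of 24 at least 2-fold lower in replicate 1.

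**Figure D3:**
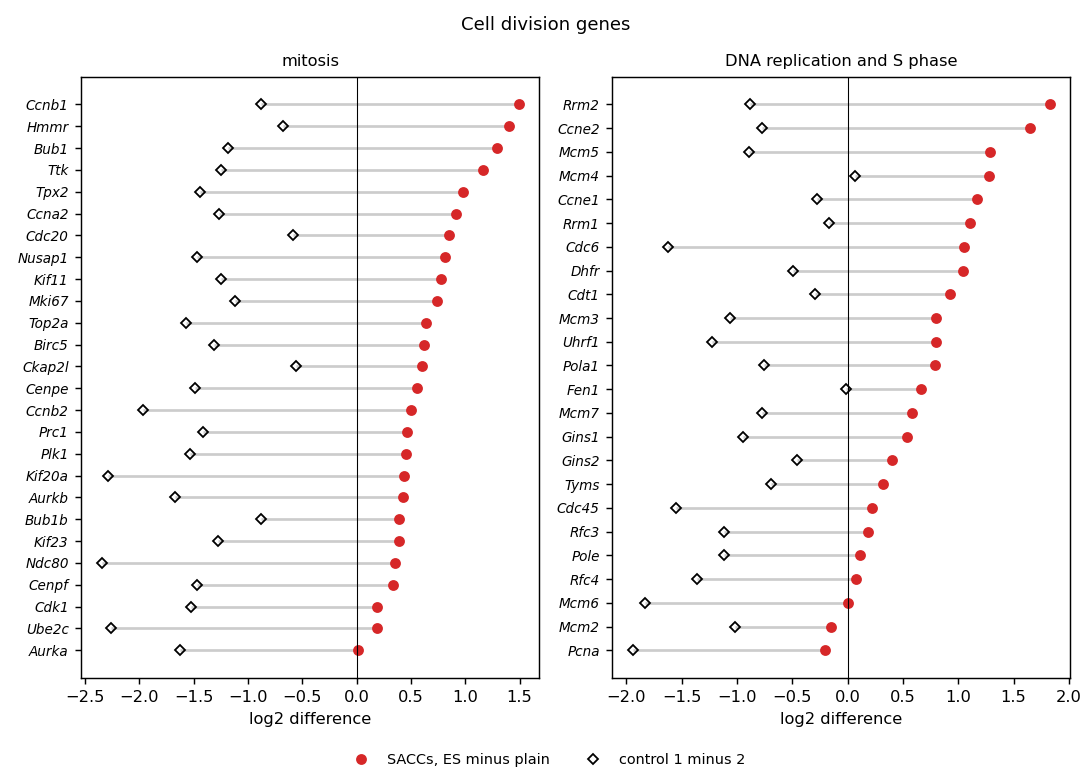
Log2 differences of the members of the mitosis and DNA replication lists, with the SACC difference in red and the control difference as open diamonds. Red points lie right of 0 for 26 of 26 and 21 of 24 genes, and the diamonds lie mostly left of it.

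Genes that hold the cycle back showed no common shift. The 16 CDK inhibitors and p53 targets had a median of -0.02, with none 2-fold apart. Cdkn1a (p21) was at 11.48 in ES medium and 11.55 in plain medium, against 11.10 and 10.77 in the controls. The largest difference was that of Cdkn2a, the Ink4a and Arf locus, at 7.42 in ES medium and 8.40 in plain medium, against 7.67 and 7.65 in the controls.

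The enzymes that build cholesterol were higher in ES medium for 17 of 19 measured genes, with a median of 0.63, 4 at least 2-fold higher and none lower. The median was 0.37 with the median of the probe sets of a gene. Hmgcs1, near the start of the pathway, was at 10.01 in SACCs in ES medium and 9.05 in SACCs in plain medium, against 9.41 and 9.64 in the controls. It was highest in SACCs in ES medium and lowest in SACCs in plain medium. Fdft1, the squalene synthase, had a SACC difference of 1.11 and a control difference of 0.26, with 2 of its 4 probe sets of the opposite sign. Dhcr7, the last enzyme of the pathway, had 1.09 and -0.23. The exceptions were Fdps (-0.47) and Mvk (-0.18). The list median between the controls was -0.43, with 3 of 19 at least 2-fold lower in replicate 1.

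Regulators of cholesterol uptake and sensing had a list median of 0.13 over 13 genes. Insig1, which holds Scap in the endoplasmic reticulum, was at 8.26 in SACCs in ES medium and 6.92 in SACCs in plain medium, against 8.33 and 7.98 in the controls. The SACCs in plain medium were the low array and the SACCs in ES medium lay near the controls. Srebf2, which encodes the SREBP of sterol synthesis, had a SACC difference of 0.26, and Srebf1 one of -0.02.

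Fatty acid synthesis had 11 of 13 genes above 0 with a median of 0.35 and none 2-fold apart, a median that lay between -0.03 and 0.44 over the settings tried. Fasn, the fatty acid synthase, had a SACC difference of 0.96 and a control difference of 0.61. Scd1, a fatty acid desaturase, had the opposite sign, at 9.34 and 9.99, against 7.33 and 7.25 in the controls. Of 12 cholesterol efflux genes, 1 was at least 2-fold apart, the lipoprotein gene Apoc1, at 8.12 in ES medium and 6.56 in plain medium, against 6.55 and 6.50 in the controls. The efflux pump gene Abca1 had a SACC difference of -0.62 and Apoe one of -0.83.

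Genes of glycolysis and the response to low oxygen were lower in ES medium for 18 of 19 measured genes, with a median of -0.83, 8 at least 2-fold lower and none higher. Between the controls 10 of 19 were above 0, with a median of 0.10. Vegfa, the growth factor of blood vessels, was at 8.05 in SACCs in ES medium and 10.26 in SACCs in plain medium, against 8.26 and 8.12 in the controls. Egln3, an oxygen-sensing hydroxylase, was at 7.14 and 8.63 on the SACC arrays, against 7.76 and 7.28 in the controls. Bnip3, a mitochondrial protein of low oxygen, was at 9.56 and 10.96, against 10.74 and 9.83 in the controls. For Vegfa and Egln3 the SACCs in plain medium were the highest of the 4 arrays.

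Some enzymes of glycolysis itself were less separate from the controls. Eno1, an enolase, was at 11.61 in ES medium and 12.91 in plain medium, against 11.68 and 12.88 in the controls, so its control difference of -1.20 nearly equalled its SACC difference of -1.30. Ldha, the lactate dehydrogenase subunit, behaved likewise, with -1.07 and -0.92. Pfkl, a phosphofructokinase, had a SACC difference of -1.55 and a control difference of -0.40, and the hexokinase Hk2 had -0.90 and -0.04. The glucose transporter gene Slc2a1 had -0.55 and 0.78. Car9, a carbonic anhydrase, was the gene above 0, at 4.90 in ES medium and 4.22 in plain medium. Ndufa4l2, a HIF target listed here with pericyte genes, was at 6.48 in ES medium and 8.80 in plain medium, against 6.64 and 6.11 in the controls.

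Immediate early genes, which respond within minutes to growth factors and stress, had a median of -0.80, with 9 of 21 at least 2-fold lower in ES medium and none higher. Their control median was 0.44, with 3 of 21 at least 2-fold higher in replicate 1 and none lower. Nr4a1, an orphan nuclear receptor, was at 8.97 in SACCs in ES medium and 11.23 in SACCs in plain medium, against 10.29 and 9.90 in the controls. Egr3, a zinc finger factor, was at 5.91 and 7.67, against 8.34 and 7.03, although its other probe set had the opposite sign. The SACCs in ES medium were the lowest of the 4 arrays for both.

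Not all of the family followed. Fos was at 10.75 in ES medium and 10.64 in plain medium, against 12.82 and 12.03 in the controls, and Jun at 9.71 and 9.83, against 10.33 and 9.56. The AP-1 genes with larger differences were Junb (-1.81, controls -0.96), Fosl1 (-1.44, controls -0.14) and Atf3 (-1.34, controls -0.23). Egr1 had -0.80 with a control difference of 1.82. Myc, a driver of growth, was at 7.26 in ES medium and 7.78 in plain medium, against 7.48 and 7.56 in the controls.

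Contractile genes of smooth muscle were higher in ES medium for 12 of 16, with a median of 0.60, 5 at least 2-fold higher and none lower. Des, the muscle intermediate filament desmin, was at 11.22 in SACCs in ES medium and 8.64 in SACCs in plain medium, against 7.10 and 7.72 in the controls, although its other probe set had the opposite sign. Myh11, the smooth muscle myosin heavy chain, was at 8.82 and 7.13, against 7.03 and 6.40 in the controls. Itga8, an integrin subunit of smooth muscle and mesangium, was at 8.01 and 5.85, against 7.45 and 6.74, also with a probe set of the opposite sign. The SACCs in ES medium were the highest array for all 3. Lmod1, a nucleator of actin filaments, had a SACC difference of 1.57 and a control difference of 1.14.

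The most abundant contractile genes differed less. Acta2, smooth muscle actin, was at 13.58 in ES medium and 12.89 in plain medium, against 13.39 and 12.83 in the controls, and Tagln at 12.30 and 12.16, against 11.17 and 11.71. Targets of the serum response factor and YAP, which overlap with contractile genes, had a median of 0.45 with 3 of 16 at least 2-fold higher. Ankrd1, a YAP target, was at 8.82 in ES medium and 6.64 in plain medium, against 7.86 and 7.65 in the controls. Ccn2 (connective tissue growth factor) had 1.15 with controls at 0.51, and Lats2, a kinase that restrains YAP, 1.18 with controls at 1.82, although the median of its probe sets gave -0.65.

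**Figure D4:**
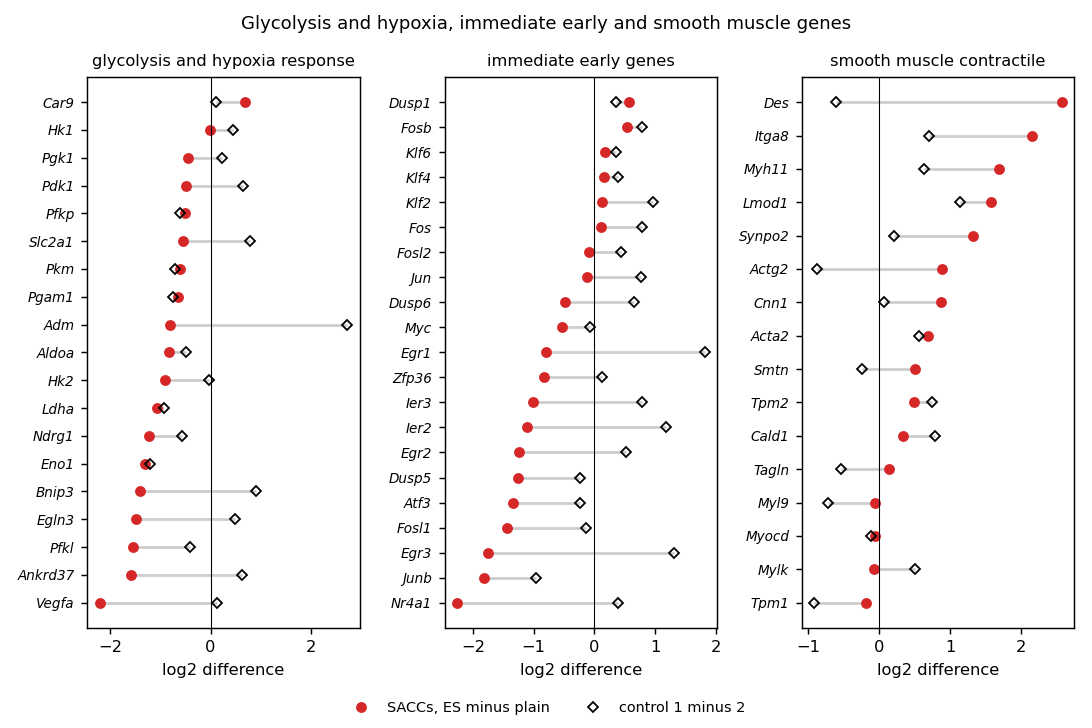
Log2 differences of the members of the glycolysis and hypoxia, immediate early and smooth muscle lists, with the SACC difference in red and the control difference as open diamonds. In the left panel 1 of 19 red points lies right of 0, and in the right panel 12 of 16 do.

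Of the cytokines of the interleukin 6 family, Il11, Lif and Il6 were at least 2-fold lower in ES medium, Osm had -0.69 and Ctf1 0.52. Il6 itself was at 9.92 in SACCs in ES medium and 11.90 in SACCs in plain medium, against 10.57 in control replicate 1 and 8.80 in control replicate 2. Like Lif it was highest in SACCs in plain medium and lowest in control replicate 2. Their shared receptor chain and its signalling genes did not follow. Il6st was at 10.70 in ES medium and 10.41 in plain medium, and Stat3 at 10.26 and 10.10. Socs3, which STAT3 induces, was at 10.49 and 9.49, against 11.28 and 9.28 in the controls. Over the 14 genes of ligands, receptors and targets the median SACC difference was 0.08 and lay between -0.51 and 0.18 over the settings tried. The SACC differences of the list thus have no common direction. Between the controls all 14 genes were above 0, beside 50.6% of all genes, with a median of 0.80 and 6 at least 2-fold higher in replicate 1. With the control difference subtracted from the SACC difference all 14 were below 0, with a median of -0.90, while 50.6% of all genes were above 0. The SACC differences alone were above 0 for 8 and below 0 for 6 of the 14, so part of each net value comes from the controls.

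Genes of NF-kB signalling and the acute phase had 5 of 17 at least 2-fold lower and 1, Hp, higher, with a median of -0.18. Ptgs2, the inducible cyclooxygenase, was at 10.41 in ES medium and 11.88 in plain medium, against 10.55 and 10.04 in the controls. Ptges, the prostaglandin E synthase downstream of it, was at 7.58 and 8.65, against 6.35 and 6.18. The SACCs in plain medium were the highest array for both. Il1a had -2.40 with controls at -2.02. Saa3, an acute phase protein, was at 13.96 and 13.35 on the SACC arrays, against 13.77 and 11.69, and Nfkbia, the inhibitor that NF-kB induces, had 0.31 with controls at 0.99.

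Chemokines differed one by one. Ccl11 (eotaxin), which draws eosinophils, was at 9.59 in SACCs in ES medium and 7.54 in SACCs in plain medium, against 3.90 and 3.97 in the controls. Cxcl5, which draws neutrophils, was at 11.71 and 10.04, against 7.49 and 6.93 in the controls. Both SACC arrays lay above both controls for these genes. In the other direction the membrane chemokine Cx3cl1 was at 6.27 in ES medium and 8.23 in plain medium, against 7.99 and 6.40 in the controls, and Ccl3 had a SACC difference of -1.54 and a control difference of 1.39. Ppbp, the platelet basic protein, was at 6.89 and 8.87, against 7.10 and 6.48. List medians were -0.00 over 14 CXC and 0.09 over 13 CC chemokines, with values of both signs over the settings tried.

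Growth factors for blood cells also went both ways. Kitl, the stem cell factor, was at 9.32 in SACCs in ES medium and 7.88 in SACCs in plain medium, against 8.32 and 8.62 in the controls. With Csf3 it made up the 2 genes of 13 past 2-fold. Csf1, the macrophage growth factor, was at 10.74 and 11.05, against 10.17 and 10.27. Cxcl12, a stromal factor that retains blood stem cells, had 0.48 with controls at 1.14.

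The RANKL gene Tnfsf11, whose product drives osteoclasts and lymphoid organ stroma, was at 8.02 in SACCs in ES medium and 5.18 in SACCs in plain medium, against 2.53 and 3.18 in the controls. Its other probe set had the opposite sign. Genes of the osteoclast pathway had a median of 0.69, with 5 of 12 at least 2-fold higher in ES medium and none lower. The median was 0.19 with the mean of the probe sets of a gene, and the same with their median. Ctsk, the bone-degrading cathepsin K, was at 10.99 and 9.14, against 7.82 and 8.91 in the controls. Ocstamp and Dcstamp, which act in osteoclast fusion, had 2.06 and 1.24 with controls at -1.21 and -1.25. Acp5, the tartrate-resistant phosphatase, was at 9.51 and 8.25, against 6.40 and 9.38. The receptor gene Tnfrsf11a was at 4.98 and 5.28, against 6.59 and 7.04. Between the controls 6 of the 12 were at least 2-fold lower in replicate 1, with a median of -0.87.

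Transcription factors of the developing spleen were among the higher genes. Nkx2-5 was at 7.29 in SACCs in ES medium and 5.24 in SACCs in plain medium, against 4.40 and 4.94 in the controls. Tlx1, which the mouse spleen needs to form, was at 7.16 and 5.57, against 3.76 and 5.02. Tcf21, a factor of visceral mesenchyme, was at 7.35 and 5.84, against 5.24 and 4.15. These 3 were highest in SACCs in ES medium and next highest in SACCs in plain medium. Nkx2-3 (5.80 and 6.75, against 5.14 and 6.18) was higher in plain medium, and Wt1 was at 8.19 and 8.14, against 4.30 and 5.57. Over 18 genes of spleen mesenchyme the median was 0.24, with 4 at least 2-fold higher and none lower.

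Mesothelial genes, which mark the cells of the spleen capsule, had 3 of 12 higher and 3 lower by at least 2-fold. Upk3b was at 7.00 in SACCs in ES medium and 5.29 in SACCs in plain medium, against 4.02 and 4.47 in the controls, and Bnc1 at 6.85 and 5.38, against 3.49 and 4.46. The keratins Krt8 (5.82 and 7.53, against 4.93 and 5.68) and Krt18 (4.62 and 6.02, against 2.85 and 3.76) were higher in plain medium. Msln and Muc16 lay below the median on all 4 arrays. The list median of 0.23 lay between -0.61 and 0.41 over the settings tried.

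Receptors for angiotensin were higher beside the peptidase Mme. Agtr1a was at 7.30 in SACCs in ES medium and 5.13 in SACCs in plain medium, against 6.13 and 5.17 in the controls. Agtr2 was at 8.16 and 6.11, against 2.53 in control replicate 1 and 5.88 in control replicate 2. Agt, the precursor of angiotensin, was at 3.91 in ES medium and 5.70 in plain medium, against 3.90 and 4.23. Enpep, an aminopeptidase that acts on angiotensin, was at 8.21 and 8.65, against 3.69 and 4.52. Over the 11 genes 3 were at least 2-fold higher and 1 lower, with a median of 0.16.

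Insulin-like growth factors and the imprinted H19 were higher in ES medium and in control replicate 1 alike. Igf1 was at 11.49 in SACCs in ES medium and 10.19 in SACCs in plain medium, against 12.09 and 11.37 in the controls. Igf2 was at 6.40 and 4.44, against 6.66 and 4.28, and the noncoding RNA H19 at 10.52 and 9.26, against 6.83 and 5.58. For H19 the SACC and the control difference were both 1.26. Igfbp6, a binding protein that favours Igf2, was lower, at 8.04 in ES medium and 9.31 in plain medium, against 7.95 and 8.23 in the controls. The median over 13 genes was 0.33, and 0.78 between the controls.

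Among BMP genes, Bmp4 was at 7.01 in SACCs in ES medium and 4.92 in SACCs in plain medium, against 6.86 and 6.04 in the controls. Bmp2 was at 5.40 and 7.07, against 6.73 in control replicate 1 and 4.09 in control replicate 2. The Id genes, which BMP signals induce, split as well. Id4 had 1.64 with controls at 0.77, and Id1 -1.52 with controls at -1.18. Id2 and Id3 had SACC differences of -0.46 and -0.14. The 12 TGF-beta and 13 Notch genes had medians of 0.04 and 0.08 and no member at least 2-fold higher, beside 3.23% of all genes. Tgfbi, a matrix protein that TGF-beta induces, was the member 2-fold lower, with -1.16 and controls at -1.12.

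Granule genes of immature neutrophils were lower in ES medium for all 7 measured, with a median of -2.12 and 5 at least 2-fold lower. Mpo, the myeloperoxidase, was at 3.25 in SACCs in ES medium and 6.36 in SACCs in plain medium, against 3.49 and 4.84 in the controls. Elane, neutrophil elastase, was at 3.49 and 5.60, against 3.93 and 5.30, and the protease Prtn3 at 5.70 and 8.09, against 4.82 and 6.29. Between the controls 3 of 7 were at least 2-fold lower in replicate 1, with a median of -0.91. Of 13 genes of later granules, 6 were at least 2-fold lower and 1 higher, with a median of -0.77 beside -1.71 between the controls. S100a9, an abundant calcium-binding protein of neutrophils, was at 8.07 in ES medium and 9.51 in plain medium, against 3.19 in control replicate 1 and 10.53 in control replicate 2. Mmp8, neutrophil collagenase, had the opposite order, at 8.60 and 6.86, against 7.05 and 8.76. The part of neutrophil content in the level of Lcn2 was not tested.

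Mast cell genes were lower for 8 of 11, beside 48.1% of all genes, with a median of -0.46. At least 2-fold lower were 3, beside 2.52% of all genes, and 1 was higher. The carboxypeptidase Cpa3 was at 5.71 in SACCs in ES medium and 7.06 in SACCs in plain medium, against 6.28 and 4.74 in the controls, and the chymase Cma1 at 4.39 and 5.86, against 4.74 and 4.59. The basophil protease Mcpt8 was at 5.37 and 4.02, against 2.96 and 3.81. Ms4a2, a chain of the IgE receptor, lay below the median on all 4 arrays.

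Macrophage genes had a median of -0.17, close to that between the controls (-0.27), with 6 of 21 at least 2-fold lower in each. The scavenger receptor gene Marco was at 5.29 in SACCs in ES medium and 8.21 in SACCs in plain medium, against 4.33 and 5.54 in the controls. The complement genes C1qb and C1qc had -1.37 and -1.29 with controls at -0.43 and -0.34, while C1qa had -0.49. Cd68 had -1.28 with controls at -1.42. Adgre1, the F4/80 antigen, was at 8.92 in ES medium and 9.05 in plain medium, against 11.21 and 11.48. The 15 T and natural killer cell genes had a median of 0.01, and the 10 B cell genes, apart from Ighm, had no member 2-fold apart in the SACCs.

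Fibroblast and matrix genes had a median of 0.21, with 1 of 22 at least 2-fold higher and none lower, near the 3.23% and 2.52% of all genes. That gene was Mfap4, a microfibril protein, at 10.62 in SACCs in ES medium and 9.25 in SACCs in plain medium, against 6.59 and 6.07 in the controls. Col3a1 was at 13.92 and 13.96, and Pdgfra, the PDGF receptor of stroma, at 11.50 and 11.74. Plau, the urokinase protease, was at 5.81 in ES medium and 3.64 in plain medium, against 5.23 and 4.88 in the controls. Timp1, an inhibitor of matrix proteases, was at 11.94 and 13.22, against 10.69 and 11.57.

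Interferon-induced genes were above 0 for 14 of 18, beside 51.9% of all genes, and 4 were at least 2-fold higher, beside 3.23% of all genes. Their median was 0.42, beside a control median of -0.72 with 9 of 18 lower. The guanylate-binding protein gene Gbp3 was at 8.15 in SACCs in ES medium and 6.66 in SACCs in plain medium, against 6.02 and 6.05 in the controls. Ifit1, which binds foreign RNA, was at 8.42 and 7.26, against 5.29 and 5.61. Ifit3 (6.66 and 7.36) and Irf7 (6.76 and 6.90), by contrast, were no higher in ES medium.

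Vitamin A and redox genes had members at least 2-fold lower. Of 13 retinoid genes 4 were lower, beside 2.52% of all genes, and none higher, with a median of -0.29. Between the controls 4 of the 13 were at least 2-fold lower in replicate 1 and 1 higher, with a median of -0.05. Aldh1a2, which makes retinoic acid, was at 6.68 in SACCs in ES medium and 8.75 in SACCs in plain medium, against 4.52 and 6.28 in the controls. Aldh1a2 differed between the controls in the same direction, by -1.76. Of 14 NRF2 targets 3 were lower and none higher, with a median of -0.33. Their control median of -0.32 was close to it, with 1 of 14 at least 2-fold lower in replicate 1 and 1 higher. Nqo1, a quinone reductase, was at 6.97 in ES medium and 8.58 in plain medium, against 6.61 and 6.93, and Hmox1, which degrades heme, had -1.21 with controls at -1.99. Pdk4, a kinase that blocks pyruvate oxidation, was the 2-fold higher member of 14 FOXO targets, at 8.12 and 6.19, against 4.66 and 3.82.

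Pluripotency genes showed no common shift in the medium made for ES cells. The 19 genes had a median of 0.13, which lay between -0.10 and 0.29 over the settings tried, with 1 at least 2-fold higher and 1 lower, and 10 lay below the median on all 4 arrays. Klf5 was at 5.96 in SACCs in ES medium and 4.76 in SACCs in plain medium, against 5.16 and 4.86 in the controls. Tbx3 was at 6.40 and 7.73, against 5.04 and 5.61. Klf4, shared with the immediate early genes, was at 8.35 and 8.18. Reference genes such as Actb (13.58 and 13.61) had a median of -0.08 over 13, with none 2-fold apart in either difference.

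**Figure D5:**
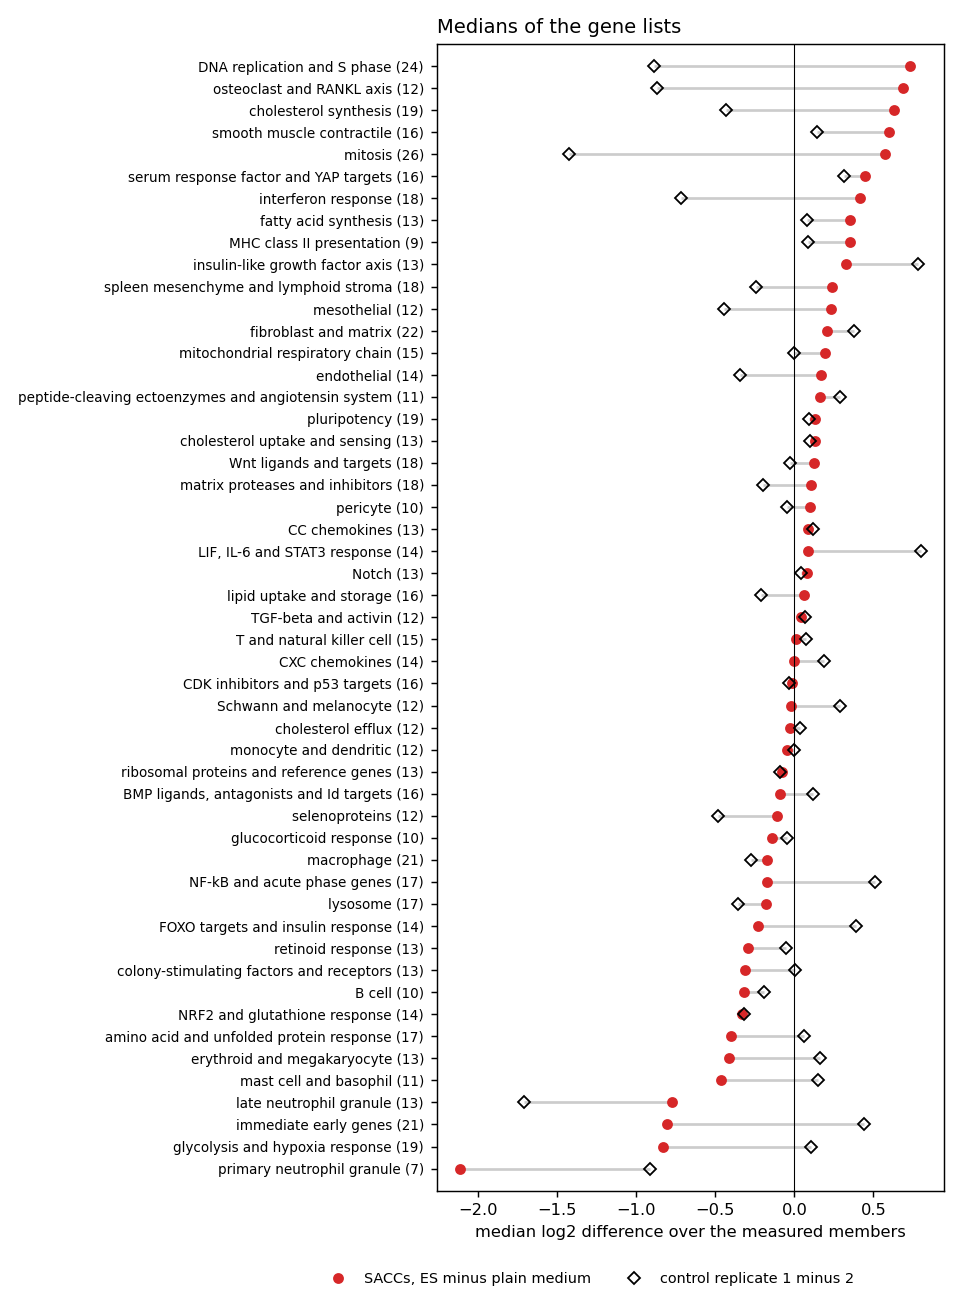
Median log2 difference of each of the 51 gene lists, with the number of measured members in brackets, the SACC difference in red and the control difference as an open diamond, ordered by the SACC median. The replication, osteoclast, cholesterol synthesis and mitosis lists have red points right of 0 and diamonds left of it. For the glycolysis and immediate early lists the reverse holds.

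Subtracting the control difference from the SACC difference takes out what the 2 deposited tables share. It also brings in whatever differs between the controls alone. At 2-fold, 757 genes (3.83%) were then higher and 472 (2.39%) lower. Mme (5.76) and Lcn2 (-5.21) kept their places near the ends. S100a9 (5.90) and Agtr2 (5.41) joined them at the upper end, in both cases with a low value in control replicate 1. The SACC difference of S100a9 itself was -1.44, so its place at the upper end comes from the controls. At the lower end Bmp2 (-4.31), Lif (-4.26) and Il6 (-3.75) combined a lower value in SACCs in ES medium with a higher value in control replicate 1.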

How the data were processed

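The authors deposited log2 values of Affymetrix probe sets in 2 tables, each with a SACC array and a control array. Biotinylated cRNA was made from column-purified total RNA, per the labels' protocols. The submitters' processing notes name Transcriptome Analysis Console. Its version, the summarisation and normalization, and the build were not given in the sources. Array medians of the deposited log2 values were 4.52 (SACCs in ES medium), 4.35 (SACCs in plain medium), 4.59 and 4.34 (controls). A deposited table of all 4 arrays held the same log2 values. Pearson's r was 0.970 between the SACC arrays and 0.959 between the controls, so neither of these 2 pairs was a duplicate.

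Tables were matched by probe set and quantile normalized over the 4 arrays with Python 3.11.15, numpy 2.4.6 and pandas 2.3.3. The tables gave 1 symbol for 36109 of 45037 probe sets, more than 1 for 1236, none for 7628 and a date for 64. Of the single symbols 33553 were current and 1116 synonyms in RefSeq (GRCm38.p6), and 1440 kept the file's name. For each of 19747 genes the probe set of highest mean over all arrays was used. Precision is limited by the number of arrays. No test was run, and no detection calls were used. The procedure was tested on simulated data.

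The genes named in the text were the 20 highest and 20 lowest SACC differences, the 10 highest and lowest with controls within 0.5, the 8 highest and lowest net differences and, per list, the 6 members with the largest SACC differences, among genes with a SACC value above the array median. Predicted genes, clone names, small RNAs, olfactory and vomeronasal receptors and segments of immunoglobulins and T cell receptors were left out, which left 12096 of 12715 genes. Other members of lists, genes alike in both differences and the sex-linked and immunoglobulin genes were chosen after their values were seen. Some genes under this rule are not reported here. The comparison, its 51 lists (718 of 740 genes measured) and the rule were chosen with earlier results of these data known. Alternatives were other normalizations, other choices of probe set, brighter genes, other folds and, added after the data were seen, leaving out chromosomes X and Y.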

Additional observations from a re-analysis of the deposited data

Results flagged for a closer look

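In 3 gene lists the SACC arrays and the controls had medians of opposite sign, each at least 0.5 in size. The difference between the 2 contrasts was not tested. Mitosis genes had a median of 0.58 in SACCs and -1.43 in controls, and the median of the net difference, SACC minus control, was 2.06. DNA replication genes had 0.73 in SACCs and -0.89 in controls, with a net median of 1.46. Osteoclast and RANKL genes had 0.69 in SACCs and -0.87 in controls, with a net median of 1.21. In all 3 lists control replicate 2 was higher than control replicate 1, so part of each net value comes from the controls.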

How the results depend on the processing

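Genes at least 2-fold higher in ES medium numbered 637, and 988 with the values as deposited, 408 averaging probe sets per gene, 375 among genes brighter than the median gene, 1572 over all probe sets and 75 at 4-fold. Those lower numbered 497, and 314 among brighter genes, 1884 over all probe sets and 56 at 4-fold. Between the controls the higher count of 774 became 488 after centring arrays on their medians, 405 with the mean of probe sets, 2465 over all probe sets and 58 at 4-fold. The lower count of 789 became 525 among brighter genes, 2706 over all probe sets and 90 at 4-fold. The net count of 757 higher genes was 423 among brighter genes. Normalizing without control replicate 1 or 2 gave 647 and 631 higher and 504 and 493 lower genes. Higher genes made up 56.2% of SACC calls, 72.9% as deposited, 42.8% with the mean and 41.3% with the median of probe sets, and 45.5% over all probe sets. The medians of the mitosis (0.47 to 0.74), replication (0.31 to 0.86), cholesterol synthesis (0.37 to 0.77), glycolysis and hypoxia (-1.07 to -0.74), immediate early (-0.89 to -0.72), smooth muscle (0.48 to 0.76), osteoclast (0.19 to 0.86) and interferon lists (0.29 to 0.59) kept their sign under every setting run. So did the early neutrophil granule list, with -1.27 among brighter genes, and the late one (-1.05 to -0.64). Among named genes 4 values reversed, Rrm1 at -0.95 with the mean and with the median of probe sets, and Kbtbd11 at -0.31 and Lats2 at -0.65 with the median. The medians of 18 of the 51 lists took both signs over the settings run. No paired analysis was possible because each SACC group holds a single array. Values below the array medians limit the folds of dim genes.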

Other observations

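Among the larger differences between the SACC arrays not described above were Limch1, Esm1, Kng1 and Hmcn1 upward and Bcl6b, Bdkrb1, Nr4a3 and Prg4 downward. Also upward, Arxes1 had 2.67 (controls 0.85) and Brinp3 2.54 (controls -1.21). Net1 (-3.36, controls -2.39), Stfa3 (-3.29, controls -3.79), Lat2 (-2.98, controls -4.68) and Tnfrsf23 (-2.82, controls -2.88) were lower in both differences. Esm1, a secreted proteoglycan of endothelial cells, was at 6.64 in SACCs in ES medium and 3.93 in SACCs in plain medium, against 2.88 and 3.48 in the controls. Kng1, the kininogen from which bradykinin is cut, was at 5.82 in ES medium and 3.33 in plain medium, against 2.78 and 2.39. Bdkrb1, an inducible receptor for kinin peptides, was at 5.19 in ES medium and 7.88 in plain medium, against 5.27 and 6.37. The ligand gene and the receptor gene thus had opposite orders on the SACC arrays. Prg4, the joint lubricant lubricin, was at 3.96 and 6.12 on the SACC arrays, against 3.48 and 3.90 in the controls.

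The melanocyte genes Pmel, Dct, Tyrp1 and Tyr differed more between the controls than between the SACC arrays. Pmel, a melanosome protein, was at 5.04 in SACCs in ES medium and 5.36 in SACCs in plain medium, against 8.62 in control replicate 1 and 4.99 in control replicate 2. Dct, an enzyme of pigment synthesis, was at 4.77 and 3.74 on the SACC arrays, a SACC difference of 1.03, against 8.03 and 4.50. The control differences of Tyrp1 and Tyr, both in pigment synthesis, were 2.65 and 2.12, beside SACC differences of 0.26 and 0.13.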
